A study of Mus musculus with 2 samples.

Results

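The regions described here are the PHLPP1 CUT&Tag peaks at the mouse Zfp zinc finger genes. They were chosen as every autosomal peak that overlapped the body of a RefSeq protein-coding gene whose symbol is Zfp followed by a number, or that lay within 1 kb of either end of such a gene. The rule took 1549 of 225427 autosomal regions from the IL-4 library and 1223 of 165089 from the untreated library, at 360 of 20665 autosomal protein-coding genes. A region within 1 kb of a gene end is called an end region, and a gene that has one is called marked. A region that overlaps a gene body more than 1 kb from both ends is called an inside region. The 208 Zfp genes with another Zfp gene within 100 kb are called clustered, and the other 152 isolated.

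The cells were primary alveolar macrophages, the resident phagocytes of the air spaces, from bronchoalveolar lavage of wild-type mice. One library came from cells given IL-4 at 20 ng/ml for 4 h, and the other from untreated cells, and both groups carried the wild-type genotype. CUT&Tag tethers a transposase through an antibody, here one raised against PHLPP1, a protein phosphatase of the AKT pathway, so that the DNA near the antibody is cut and sequenced. Each group held 1 library, so no difference between IL-4 and untreated cells has a replicate check and no test between them was made. The labels give neither the number nor the sex or age of the mice, and no control-antibody library was analysed here. Read depth is not given in the deposited lists. All 11 alveolar macrophage marker genes on a list used to check the label had an end region in both libraries, while of 6 lymphocyte markers 4 had one in the IL-4 library and 1 in the untreated library, of 6 lung epithelial markers 6 and 3, and of 6 neutrophil markers 4 and 3. All genes had one at 73.3% and 60.1%, so an end region of any strength is no sign of cell type by itself. With −log10 q of 5 or more, 10 alveolar macrophage markers had one in the IL-4 library and 6 in the untreated library. For lymphocyte markers the numbers were 1 and 0, for epithelial markers 2 and 0 and for neutrophil markers 3 and 2. The share of all genes at that strength was 53.8% and 34.4%. The highest fold of the markers was that of the neutrophil gene S100a8, 7.11 in the IL-4 library and 4.89 in the untreated library. The highest alveolar macrophage folds were 5.34 (Mertk) with IL-4 and 4.29 (Cd68) without. What was counted is signal near the antibody, and the binding of PHLPP1 itself to DNA cannot be told apart from other sources of antibody signal.

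Most Zfp genes encode proteins with C2H2 zinc fingers, small folds held by a zinc ion that read DNA bases through their fingertips. Many of them carry a KRAB domain, which recruits TRIM28 and, through it, the histone methyltransferase SETDB1, so that H3K9me3 is laid over the retrotransposons and other sequences the fingers recognise. The KRAB zinc finger genes arose by repeated tandem duplication, which left many of them in dense clusters of related copies, some of them near-identical. The symbol also covers genes of other kinds, such as Zfp36, which encodes tristetraprolin, a CCCH finger protein that binds AU-rich messages and speeds their decay.

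Promoters of 4 Zfp genes, each 250 bases before and 50 bases after the RefSeq start in GRCm38.p6, the assembly behind mm10, show the range of what was found. Zfp143 had the highest fold of all Zfp end regions in the IL-4 library, and Zfp78 the highest of the clustered genes. Zfp14 was marked with IL-4 only, and Zfp57 in neither library. They lie at chr7:110061452-110061751 on the plus strand (Zfp143), chr7:6363058-6363357 on the plus strand (Zfp78), chr7:30051347-30051646 on the minus strand (Zfp14) and chr17:37000913-37001212 on the plus strand (Zfp57). Capitals mark CG dinucleotides, of which Zfp143 has 18, Zfp78 has 13, Zfp14 has 12 and Zfp57 has 6. The CG dinucleotides of Zfp57 all lie in the upstream part of its window, while those of Zfp14 crowd towards its start site.
Zfp143: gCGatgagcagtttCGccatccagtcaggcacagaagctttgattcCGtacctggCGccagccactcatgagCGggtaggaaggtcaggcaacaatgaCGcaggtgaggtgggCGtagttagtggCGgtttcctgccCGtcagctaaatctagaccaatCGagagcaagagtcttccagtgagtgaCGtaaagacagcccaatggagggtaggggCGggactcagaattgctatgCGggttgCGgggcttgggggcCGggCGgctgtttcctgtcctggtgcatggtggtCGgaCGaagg
Zfp78: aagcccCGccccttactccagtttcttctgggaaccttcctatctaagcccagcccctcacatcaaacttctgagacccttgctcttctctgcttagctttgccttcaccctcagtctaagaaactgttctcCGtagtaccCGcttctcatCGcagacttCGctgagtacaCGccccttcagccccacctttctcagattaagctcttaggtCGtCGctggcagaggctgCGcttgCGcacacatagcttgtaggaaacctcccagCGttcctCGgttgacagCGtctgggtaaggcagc
Zfp14: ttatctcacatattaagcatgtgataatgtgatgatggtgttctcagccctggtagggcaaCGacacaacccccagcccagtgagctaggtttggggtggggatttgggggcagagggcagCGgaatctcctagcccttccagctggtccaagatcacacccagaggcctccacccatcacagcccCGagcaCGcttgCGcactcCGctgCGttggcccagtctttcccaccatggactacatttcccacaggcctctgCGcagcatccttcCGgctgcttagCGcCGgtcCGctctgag
Zfp57: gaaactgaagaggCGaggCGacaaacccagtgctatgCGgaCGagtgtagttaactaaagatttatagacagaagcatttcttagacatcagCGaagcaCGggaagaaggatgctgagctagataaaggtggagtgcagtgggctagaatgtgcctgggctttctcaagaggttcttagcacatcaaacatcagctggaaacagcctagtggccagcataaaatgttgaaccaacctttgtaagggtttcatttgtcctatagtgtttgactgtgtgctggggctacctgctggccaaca

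Zfp genes were marked in the IL-4 library in 309 of 360 cases (85.8%, 95% Clopper-Pearson interval 81.8 to 89.3) and in the untreated library in 245 (68.1%, 63.0 to 72.8). All protein-coding genes were marked at 73.3% in the IL-4 library and 60.1% in the untreated library. The Zfp share therefore lay above the background share in both, and the intervals, which cover counting error only, did not reach it. With regions of −log10 q 5 or more alone, 248 Zfp genes (68.9%) were marked in the IL-4 library and 156 (43.3%) in the untreated library, against 53.8% and 34.4% of all genes. With a fold over background of 3 or more, 193 (53.6%) and 116 (32.2%) were marked, against 41.8% and 27.4% of all genes. Folds and q values are the authors' own, set within each library and not scaled between them. The Zbtb genes, another C2H2 family whose members carry a BTB domain, were marked in 30 of 34 cases in the IL-4 library and in 28 in the untreated library. The olfactory receptor genes, which also sit in tandem clusters, were marked in 266 of 1104 cases (24.1%) in the IL-4 library and in 221 (20.0%) in the untreated library.

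The signal at Zfp gene ends lay at their starts. Strand was known for 301 Zfp genes, and 251 of them (83.4%, 78.7 to 87.4) had a region at the start in the IL-4 library and 201 (66.8%, 61.1 to 72.1) in the untreated library. The share of all genes with known strand was 65.6% in the IL-4 library and 54.1% in the untreated library. At the finish, the end where transcription stops, the order turned round. There 44 Zfp genes (14.6%, 10.8 to 19.1) had a region in the IL-4 library and 24 (7.97%, 5.18 to 11.6) in the untreated library, against 28.6% and 17.2% of all genes. Inside regions were also found in fewer Zfp genes than in genes at large, in 183 (50.8%) in the IL-4 library and 154 (42.8%) in the untreated library, against 60.5% and 50.1%. That count depends on gene length, which was not matched: the median was 18104 bp (quartiles 12145 to 28862) for Zfp genes and 17476 bp (5836 to 45554) for other genes. Per 10 kb of gene body the order differed, with 1.11 inside regions (1.04 to 1.17) in Zfp genes and 1.02 in other genes in the IL-4 library, and 0.908 (0.852 to 0.967) and 0.680 in the untreated library. Without a block of 14 Zfp genes on chromosome 4, described with the clusters, the density of Zfp genes was no higher than that of other genes. It was 0.953 (0.892 to 1.02) in the IL-4 library and 0.678 (0.627 to 0.732) in the untreated library. The block was chosen after its values were seen, and no dense part of the other genes was left out. Of the finish regions, some are the start region of the next gene in a tandem cluster. The region at chr7:6383044-6383626 counted both at the finish of Zfp78 and at the start of Zfp28, which lies 0.600 kb away, and had a fold of 7.48 in the IL-4 library and 4.43 in the untreated library.

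**Figure D1:**
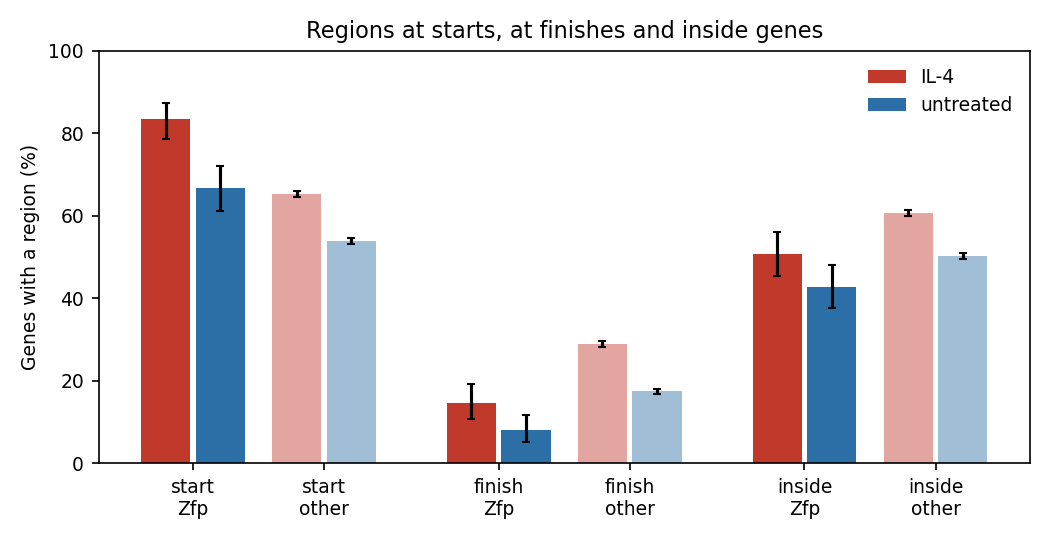
Share of genes (%, vertical axis) with a region at the start, at the finish and inside, for Zfp genes (full colour) and other protein-coding genes (pale), in the IL-4 (red) and untreated (blue) library. Bars are shares and lines their 95% Clopper-Pearson intervals, with starts and finishes over genes of known strand; Zfp genes stand above the others at starts (83.4% in the IL-4 library) and below them at finishes (14.6%).

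The summits, the highest points of the regions, showed the same shape at finer scale. Within 250 bp of a Zfp start there were 65.1 summits per 100 genes in the IL-4 library and 51.8 in the untreated library. Other genes had 44.5 and 37.0 there. From 1 to 5 kb downstream of the start, Zfp genes had 35.2 summits per 100 genes in the IL-4 library and 23.6 in the untreated library, against 52.7 and 32.0 for other genes. Zfp genes thus had more summits at the start and fewer on the flank than other genes, in each library. The 250 bp just after the start held the most summits at Zfp genes, 33.9 per 100 genes in the IL-4 library and 30.9 in the untreated library. At other genes the 250 bp just before the start held the most, 25 and 20.8. Within 250 bp of a finish there were only 2.66 summits per 100 Zfp genes in the IL-4 library and 1.33 in the untreated library, against 4.19 and 2.26 for other genes.

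**Figure D2:**
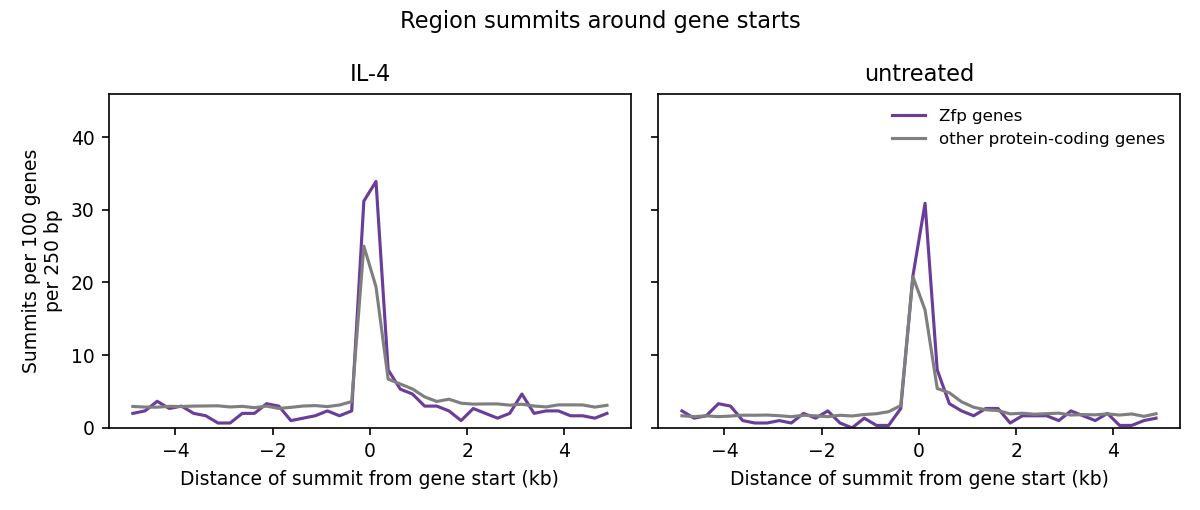
Region summits per 100 genes in 250 bp steps (vertical axis) by distance from the gene start (kb, horizontal axis, negative upstream), for Zfp genes (purple) and other protein-coding genes (grey), in the IL-4 (left) and untreated (right) library. The Zfp line peaks just after the start, at 33.9 in the IL-4 library and 30.9 in the untreated library, and runs mostly below the grey line on the flanks.

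Of the regions themselves, 397 in the IL-4 library and 290 in the untreated library were end regions, and 1152 and 933 were inside regions. End regions were stronger and wider. Their median fold was 2.96 (quartiles 2.25 to 4.57) in the IL-4 library and 2.68 (2.21 to 3.69) in the untreated library. Inside regions had 2.19 (1.96 to 2.52) and 2.15 (1.94 to 2.46). A fold of 3 or more was reached by 48.9% of end regions and 12.3% of inside regions in the IL-4 library, and by 39.3% and 9.22% in the untreated library. The median width of end regions was 499 bp in the IL-4 library and 464 bp in the untreated library, and that of inside regions 324 bp and 311 bp. End regions at other genes had a median fold of 2.59 in the IL-4 library, and their inside regions 2.15, so the contrast between ends and bodies was found there too.

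Over all Zfp genes together, end regions were also those the libraries shared more often. In the IL-4 library 65.5% of Zfp end regions (60.6 to 70.2) and 54.5% of inside regions (51.6 to 57.4) overlapped a region of the untreated library. In the untreated library, whose list is shorter than the other, 91.4% of end regions (87.5 to 94.3) and 68.0% of inside regions (64.9 to 70.9) overlapped one of the IL-4 library. Other genes showed the same contrast, with 60.7% of end and 42.5% of inside regions overlapping in the IL-4 library, and 86.8% and 64.4% in the untreated library. Isolated Zfp genes had it too, at 60.1% and 46.5% in the IL-4 library and 87.2% and 65.9% in the untreated library. Clustered Zfp genes had it in the untreated library (94.5% and 70.9%) but not in the IL-4 library (69.9% and 70.0%). In the clustered genes outside the chromosome 4 block, 44.9% of IL-4 inside regions overlapped. Of the end regions, 39 in the IL-4 library and 25 in the untreated library also lay at an end of a protein-coding gene outside the family, so that they cannot be assigned to one gene. A further count of regions at an end of more than 1 Zfp gene gave 9 in the IL-4 library and 6 in the untreated library. Regions near the window's edge were few: 6 lay 900 to 1000 bp from an end in the IL-4 library and 1 in the untreated library, and as many lay 1000 to 1100 bp away. The median fold just inside was 2.29 in the IL-4 library and 2.12 in the untreated library, and just outside 2.46 and 1.94.

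**Figure D3:**
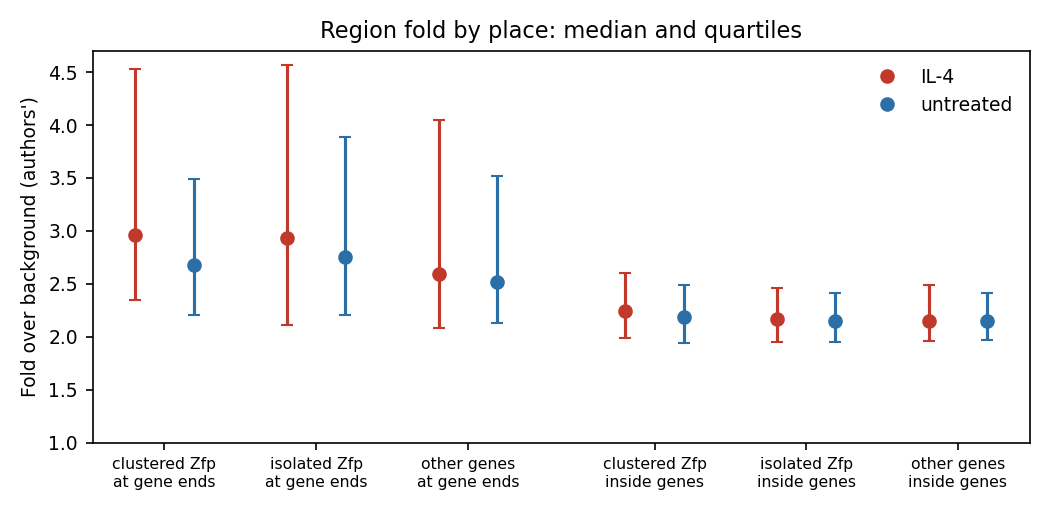
Fold over background as the authors gave it (vertical axis) of regions at gene ends and inside genes, for clustered Zfp, isolated Zfp and other protein-coding genes, in the IL-4 (red) and untreated (blue) library. Points are medians and lines run between the quartiles; every group has its higher values at gene ends.

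The Zfp region of highest fold in the IL-4 library belonged to Zfp143, an activator of snRNA and protein-coding gene promoters that also sits at chromatin loop anchors. In IL-4 cells its start region spanned chr7:110061104-110062220, had a fold of 11.1 and a pileup (the number of fragments at the summit) of 213. In the untreated library the region had a fold of 8.05 and a pileup of 119. It ranked 60 of 20027 gene-end regions in the IL-4 library and 183 of 14155 in the untreated library, so it stood near the top of each list.

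Zfp654 had 10.7 in the IL-4 library and 8.98 in the untreated library, where it came before the others. Its region also lay at the end of Cggbp1, which encodes a CGG-repeat binding protein, and cannot be given to one of them. Zfp78 had 9.94 and 8.82, and its local background of 30.9 fragments in the IL-4 library and 22.7 in the untreated library was well above the constant background of 15.9 and 13.9. Zfp367 had 9.49 and 7.62, and Zfp639 had 9.39 and 7.70. Each of these was higher in the IL-4 library and present in both. The remaining strong ends of the IL-4 list were those of Zfp142 (8.77, against 4.83 untreated, at a region shared with Bcs1l, a mitochondrial complex III assembly factor), Zfp869 (8.64, against 7.91) and Zfp706 (8.60, against 5.43, at a region shared with LOC115488529). Zfp687 (8.14 in the IL-4 library, 7.73 untreated) and Zfp317 (8.16, 7.36) completed the strongest of the untreated list.

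The genes whose functions are best known were spread over the whole range. Of 21 such genes listed for naming, 14 were marked in both libraries, 5 in the IL-4 library alone, 0 in the untreated library alone and 2 in neither. Over all genes the shares were 56.9% in both, 16.4% with IL-4 only and 3.20% without IL-4 only. Zfp809, a KRAB protein that silences murine retroviruses, had a start region of fold 6.76 in the IL-4 library and 4.49 in the untreated library. Zfp384, which binds A-rich sequences, had 6.68 and 3.22, and Zfp281, a GC-box binding factor of pluripotent cells, had 5.28 and 3.49. Zfp568, a KRAB repressor of the placental Igf2 transcript, had 4.62 and 3.08 at an end whose strand was not known. Zfp335, which T cell and neural progenitor development need, had 4.00 and 2.75. All of these were higher in the IL-4 list.

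Zfp609, a partner of the cohesin loader NIPBL, had 4.39 in the IL-4 library and 1.94 in the untreated library. Zfp703, a NET-family corepressor, had 4.07 and 3.18, Zfp710 had 4.05 and 3.22, and Zfp292 had 3.56 and 2.48. Zfp148, which binds GC-rich promoters, had 3.14 and 2.08. Zfp219 was an exception to the order, with 3.67 in the IL-4 library and 3.75 in the untreated library. Zfp36 had a start region of low fold, 1.93 in the IL-4 library and 2.2 in the untreated library. Its −log10 q was nonetheless above 5, at 6.57 and 6.35. Regions at its finish had folds of 2.04 (−log10 q 5.18) in the IL-4 library and of 2.13 (3.67) and 1.61 (0.968) in the untreated library.

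Other named genes had weak end regions or none. Zfp57, a KRAB protein that keeps methylation at imprinted control regions, had no region at an end or inside in either library, and the nearest regions lay 12 kb away in the IL-4 library and 12.3 kb in the untreated library. Zfp445, which acts with it, had an end region of fold 2.37 and −log10 q 4.32 in the IL-4 library, shared with an end of Zkscan7, and none in the untreated library. Zfp42, the pluripotency marker REX1, had an end region of fold 1.78 in the IL-4 library and none in the untreated library. Zfp750, a factor of epidermal differentiation, had none at its ends or inside in either.

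A few named genes held many inside regions beside a weak end region or none. Zfp536, a repressor of neuronal differentiation, spans 456017 bp and held 120 inside regions in the IL-4 library and 104 in the untreated library, with none at an end. Zfp423, a regulator of preadipocyte and cerebellar development, held 68 and 59, with end folds of 2.30 and 2.12. Zfp521, a relative of Zfp423, held 38 and 35, with an end fold of 1.78 in the IL-4 library and no end region in the untreated library. Zfp608 differed from these in number, with 13 inside regions in the IL-4 library and 2 in the untreated library. Its strongest inside region had a fold of 5.81 in the IL-4 library and 2.95 in the untreated library, above its end region of 1.96 in the IL-4 library. The 10 genes with most inside regions held 50.4% of all of them in the IL-4 library and 54.2% in the untreated library.

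Some inside regions were strong, although none reached the highest fold at an end, 11.1 in the IL-4 library and 8.98 in the untreated library. Zfp41 had one of fold 8.63 in the IL-4 library, at chr15:75616296-75616844, and of 5.90 in the untreated library. Zfp473, which takes part in histone pre-mRNA processing, had one of 8.06 and 7.41 at chr7:44738518-44739212, and Zfp672 one of 8.06 and 5.16. Zfp574 had 7.56 and 6.07, and Zfp407 had 6.70 and 4.49. The regions of Zfp672 and of Zfp708 (6.15 in the IL-4 library, 5.77 untreated) lay on another start that RefSeq lists within the same gene. Over all Zfp genes, 57 of 1152 inside regions (4.95%) in the IL-4 library and 41 of 933 (4.39%) in the untreated library lay at a listed start of a gene, against 3.3% and 3.46% of those in other genes. Their median fold was 2.73 and 2.68, against 2.18 and 2.15 for the inside regions elsewhere. A fold of 3 or more was reached by 45.6% and 43.9% of them, against 10.6% and 7.62% elsewhere. The same contrast was found in other genes, where 30.7% and 23.4% at listed starts reached it, against 10.6% and 6.81% elsewhere. Exon and intron positions were not analysed here.

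Between the libraries, 239 Zfp genes (66.4%) were marked in both, against 56.9% of all genes. In the IL-4 library alone 70 were marked (19.4%, 15.5 to 23.9), against 16.4%, and in the untreated library alone 6 (1.67%, 0.614 to 3.59), against 3.20%. The other 45 were marked in neither, and 30 of these had an inside region in at least 1 library while 15 had no region. The IL-4 list is the longer one for the whole genome, and how far that sets these numbers was not tested beyond cutting the IL-4 list to the untreated list's length. With lists of equal length, 81.1% of Zfp genes were marked in the IL-4 library and 68.1% in the untreated library. Then 11 genes in place of 6 were marked in the untreated library alone. The list was cut by its own −log10 p, which depends on depth. The share of all genes marked after the cut was not computed, so whether the remaining gap is particular to Zfp genes is not known.

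Where both libraries marked a gene, the strongest end region had the higher fold in the IL-4 library at 222 of 239 Zfp genes, with a median ratio of IL-4 to untreated of 1.34 (quartiles 1.17 to 1.51). Other genes had a median ratio of 1.27, and 9903 of 11525 had the higher fold with IL-4, so a shift of this kind ran through the lists as a whole. The pileup, which is not divided by background, had a median ratio of 1.58 at shared Zfp end regions and 1.56 at shared end regions of other genes, beside a ratio of 1.14 between the constant backgrounds.

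Zfp genes marked with IL-4 only mostly had weak ends. Their median fold was 2.31 (lowest 1.64, highest 3.97), 26 of 70 reached −log10 q of 5, and 6 reached a fold of 3. For 29 of them an untreated region lay 5 kb or less from an end. The like counts for genes outside the family marked with IL-4 only were not made, so these values cannot be called particular to Zfp genes. Zfp451, a SUMO E3 ligase that represses SMAD signalling, led by −log10 q at 18, with a fold of 3.97. The untreated region lay 1.02 kb from its end, just past the window, with a fold of 2.62, and overlapped the IL-4 region. Zfp688 was of the same kind, with a fold of 3.74 in the IL-4 library and an untreated region 1.21 kb away that overlapped it. In these 2 genes the difference is one of where the window falls.

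Zfp14 and Zfp652 had no such neighbour. The Zfp14 start region, over the promoter printed above, had a fold of 3.85 and a −log10 q of 16.8 in the IL-4 library, and the nearest untreated region lay 38.8 kb away. Zfp652, a partner of the corepressor CBFA2T3, had a start region of 3.62 and a finish region of 3.32 in the IL-4 library, and the nearest untreated region was 14.1 kb off. Weaker ones followed at Zfp408 (3.14, at a region shared with Arhgap1), Zfp593 (3.04), Zfp106 and Zfp94 (2.96 each), Zfp105 and Zfp668 (2.91 each, that of Zfp668 shared with Zfp646) and Zfp879 (2.78).

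The 6 Zfp genes marked without IL-4 only were Zfp990 (fold 2.75), Zfp369 (2.35), Zfp616 (2.15), Zfp352 (2.15), Zfp462 (2.08) and Zfp558 (1.88). All of them were isolated genes, and none reached a fold of 3. At 5 of the 6 an IL-4 region lay 5 kb or less from an end, and the like share for genes outside the family was not computed. Zfp369 had an IL-4 region of fold 6.28 at 1.04 kb from an end, just outside the window. Zfp558 had an inside region of fold 6.56 in the IL-4 library and 3.49 in the untreated library.

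Clustered and isolated genes were marked about as often. In the IL-4 library 180 of 208 clustered genes (86.5%) and 129 of 152 isolated genes (84.9%) were marked, a difference of 1.67 percentage points (95% interval −5.68 to 9.02). In the untreated library 142 (68.3%) and 103 (67.8%) were marked, a difference of 0.506 points (−9.25 to 10.3). Differences of several points in either direction lie within these intervals. The ratio of IL-4 to untreated fold at genes marked in both was also close, at a median of 1.33 for clustered and 1.34 for isolated genes. The composition of the regions differed more, with 35.8% of clustered and 19% of isolated regions at ends in the IL-4 library, and 29.8% and 18.7% in the untreated library. Without the chromosome 4 block the clustered shares were 57.9% (52.5 to 63.1) in the IL-4 library and 59.3% (52.9 to 65.4) in the untreated library.

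The clusters did not look alike. The largest, 15 genes from Zfp84 to Zfp146 at chr7:29768552-30169775, had 14 marked in the IL-4 library and 9 in the untreated library, and only 0.221 and 0.0883 inside regions per 10 kb of gene body. It holds both Zfp14 and Zfp568. The cluster of 13 from Zfp677 to Zfp943 on chromosome 17 had 11 marked in each library and the highest median end fold of the 5 largest, 4.80 in the IL-4 library and 3.75 in the untreated library. The cluster of 10 from Zfp180 to Zfp94 on chromosome 7 had 7 and 3 marked, with a median end fold of 2.25 and 2.15. The cluster of 14 from Zfp712 to Zfp748 on chromosome 13 had 10 and 9 marked, and that of 9 from Zfp978 to Zfp933 on chromosome 4 had 7 and 6. All genes were marked in 30 of 50 clusters in the IL-4 library and in 17 in the untreated library.

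The marked share also differed between chromosomes. On chromosome 7, which holds 90 Zfp genes, 81 (90.0%) were marked in the IL-4 library and 56 (62.2%) in the untreated library, against 69.0% and 58.0% of its other genes. On chromosome 4, 19 (70.4%) and 18 (66.7%) of 27 were marked, against 74.8% and 62.7%. On chromosome 13, 23 (71.9%) and 22 (68.8%) of 32 were marked, against 70.4% and 60%. On chromosome 17, 36 (87.8%) and 31 (75.6%) of 41 were marked, against 75.6% and 55.9%. The gap between the libraries was thus wide on chromosome 7 and narrow on chromosomes 4 and 13. A wide gap was not particular to chromosome 7. Chromosomes 2 (87.5% and 54.2% of 24) and 11 (76.5% and 47.1% of 17) had one too, while chromosome 5 had a narrow one (93.8% and 87.5% of 16).

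**Figure D4:**
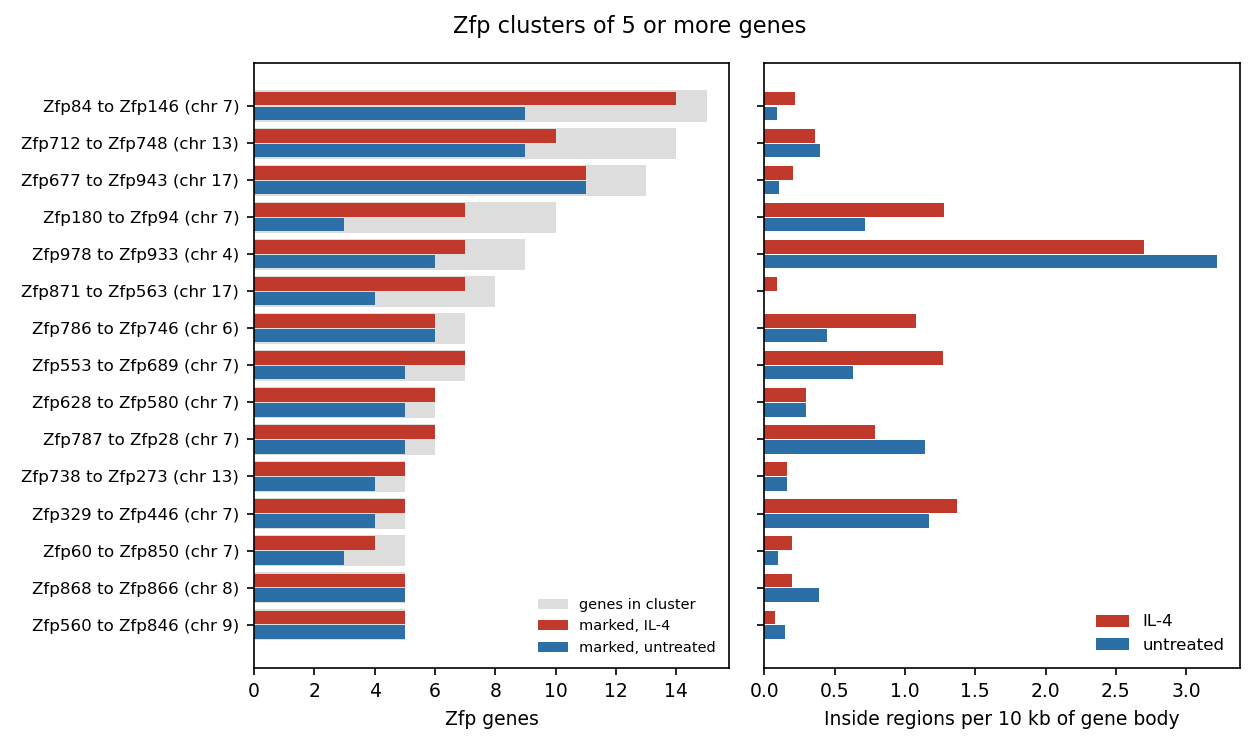
Clusters of 5 or more Zfp genes, largest at the top. Left, the number of genes in the cluster (grey) and of marked genes in the IL-4 (red) and untreated (blue) library; right, inside regions per 10 kb of gene body, highest in the chromosome 4 cluster, where Zfp978 to Zfp933 has 2.70 in the IL-4 library and 3.22 in the untreated library.

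Inside genes, clustered and isolated members differed between the libraries. Clustered genes held 425 inside regions in the IL-4 library and 428 in the untreated library, a ratio of 0.993 (95% interval for Poisson counts 0.868 to 1.14). Isolated genes held 759 and 545, a ratio of 1.39 (1.25 to 1.55), and other genes had a ratio of 1.49 (1.48 to 1.51). A region inside overlapping genes was counted once for each. The ratio of clustered genes rested on 1 place. A block of 14 Zfp genes at chr4:146097312-147849126, chosen after its values were seen, held 275 of the inside regions in the IL-4 library and 326 in the untreated library, or 2.35 and 2.78 per 10 kb. The other 194 clustered genes held 150 and 102, or 0.472 and 0.321 per 10 kb, a ratio of 1.47 (1.14 to 1.89). Without the block the clustered ratio therefore lay close to that of other genes.

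The block stood apart in more than number. The local background under its inside regions had a median of 22.1 fragments in each library. Only 15.0% in the IL-4 library and 10.5% in the untreated library were at the constant background. The shares were 70.7% and 86.1% in the other clustered genes, 40.4% and 45.7% in isolated genes, and 48.6% and 62.7% in genes outside the family. In the IL-4 library 85% of its inside regions overlapped an untreated region, against 44.9% in the other clustered genes and 46.5% in isolated genes. In the untreated library the block was close to the rest. There 72.1% (66.6 to 77.2) overlapped an IL-4 region, against 67.3% (57.3 to 76.3) in the other clustered genes and 65.9% in isolated genes. The ratio of IL-4 to untreated pileup at shared inside regions was 0.960 in the block (quartiles 0.856 to 1.08), against 1.34 in the other clustered genes and 1.26 in isolated genes. Zfp993, of 478623 bp, held 88 inside regions in the IL-4 library and 101 in the untreated library, and Zfp978 held 88 and 100. At their ends these genes had folds of 2.30 and 2.21 for Zfp993 and 2.62 and 2.37 for Zfp978. Tandem copies that are nearly identical make the placement of sequencing reads uncertain. How reads with several matches were treated is not given in the sources used here, and the part of it in these values was not tested.

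Marked starts had more CG dinucleotides. For 263 Zfp genes a promoter of 300 bases lay at the annotated start, with a median of 13.0 CG (quartiles 8 to 20), against 14 (4 to 25) for 14548 other genes. The median was 11.5 in clustered and 17.0 in isolated genes. Zfp starts marked in the IL-4 library had a median of 14, against 6 for unmarked ones, and in the untreated library 15 against 10. Other genes had a wider gap, 19 against 3 in the IL-4 library and 20 against 5 in the untreated library. Few Zfp promoters were poor in CG, as 8.75% had 0 to 4 CG, against 28.5% of other promoters. The Zfp share of marked starts was compared with that of other genes in wide steps of CG content, within which content was not matched. With 0 to 4 CG, 60.9% of 23 Zfp starts were marked in the IL-4 library and 56.5% in the untreated library, against 34.0% and 24.1% of other genes. With 5 to 9 CG, 83.3% and 65.3% of 72 were marked, against 58.6% and 41.1%. With 10 to 19 CG, 94.9% and 73.5% of 98 were marked, against 80.9% and 68.3%, and with 20 or more, 94.3% and 82.9% of 70, against 87.1% and 77.9%. The gap to other genes was wide at low CG content and narrow at high content.

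**Figure D5:**
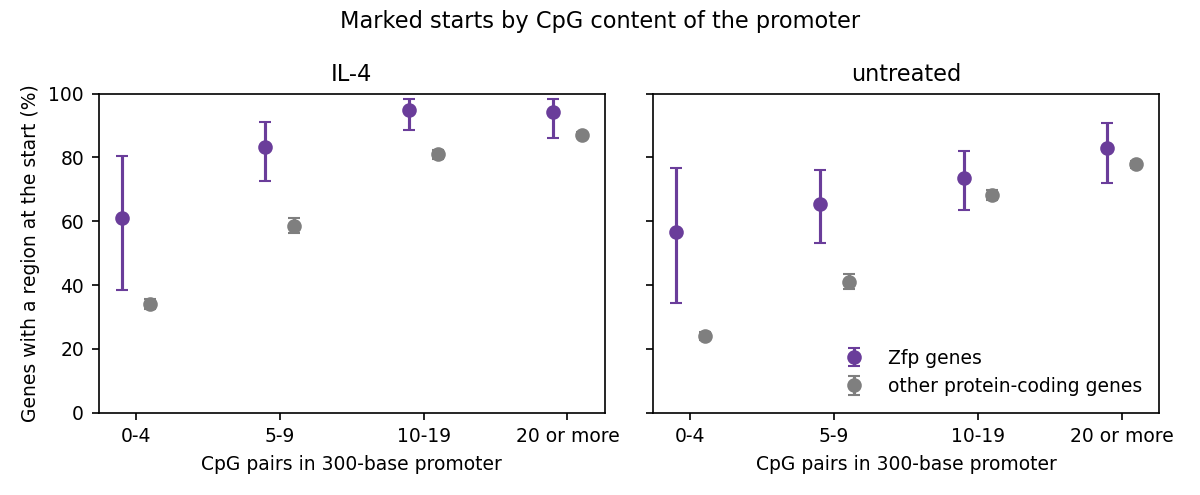
Genes with a region at the start (%, vertical axis) by the number of CG dinucleotides in the 300-base promoter (horizontal axis), for Zfp genes (purple) and other protein-coding genes (grey), in the IL-4 (left) and untreated (right) library. Points are shares and lines 95% Clopper-Pearson intervals; Zfp points stand above the grey ones in each step, from 60.9% to 94.9% in the IL-4 library.

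The promoters were also searched for short patterns on both strands. CCAAT, the box bound by NF-Y, was held by 50.6% of Zfp promoters (44.4 to 56.8) and 39.2% of other promoters. Clustered Zfp genes had it in 55.2% (47.0 to 63.2) and isolated ones in 44.0% (34.5 to 53.9). These intervals count every promoter as independent, which near-identical tandem copies may not be. CCGGAAGT, an ETS-factor site, was held by 9.13% of Zfp and 5.49% of other promoters. AAGATGGC, a YY1 site, was held by 5.70% and 3.23%, and CGCATGCG, the core of the NRF1 site, by 4.56% and 2.69%. TATAAA was rarer, at 6.08% of Zfp and 14% of other promoters. GGGCGG, the SP1 box, was held by 43.7% and 47.9%, TGACGTCA, the CREB site, by 3.04% and 2.45%, and CTCGCGAG, the core of the ZBTB33 site, by 0.760% and 1.29%. TTC and GAA with 4 bases between them, the spacing that STAT6 prefers, was held by 6.84% and 6.41%. STAT6 is the factor that IL-4 activates, and its pattern was about as frequent in both sets. Of the printed promoters, that of Zfp143 holds CCAAT and GGGCGG, that of Zfp78 GGGCGG, that of Zfp57 TATAAA, and that of Zfp14 none of the patterns searched.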

How the data were processed

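PHLPP1 CUT&Tag regions of 2 libraries, 1 from IL-4-treated and 1 from untreated alveolar macrophages, were analysed as the authors' deposited narrowPeak lists. The submitters' processing notes name mm10, Bowtie 0.12.8, MACS2 2.2.7.1 and DiffBind. Not given in the sources used here are the settings, the filters, how reads with several matches were treated and any control library. The deposited fold is the ratio of pileup to local background as the peak caller gives it, per region and per library. The deposited −log10 p and −log10 q are per region and depend on depth. The deposited integer score was not used, and the authors' summit offset placed the summits. Nothing was scaled between libraries. The lowest −log10 p was 2.03 in the IL-4 list and 2.00 in the untreated list.

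Regions were matched to RefSeq protein-coding genes of the 19 autosomes with a window of 1 kb, an overlap of 1 bp and a cluster distance of 100 kb. The members and lists were chosen with earlier results of these data known. Strand came from the RefSeq promoter table (GRCm38.p6) for 301 of 360 Zfp genes, and 263 had a promoter within 1 kb of the annotated start. Protein sequences were not used here, so finger and KRAB content was not counted. Pileups were recovered from fold and −log10 p, and came out whole within 0.05 for 100% of regions. The background was then at its constant floor, within 0.2%, for 54.3% of regions in the IL-4 list and 68.7% in the untreated list. With 1 library a group no test between libraries was made. Intervals are 95% Clopper-Pearson for shares and exact Poisson for numbers per 10 kb, and normal approximations for ratios of numbers and differences of shares, and they cover counting error only.

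Genes named were a set of 21 with known roles, those of the 8 end and 5 inside regions of highest fold per library, up to 10 marked in 1 library alone, the 5 largest clusters and the 3 genes with most inside regions. Genes and promoters outside this rule (the block on chromosome 4, Zfp608's and Zfp558's inside regions, and Zfp28) were chosen after their values were seen. For NRF1 and ZBTB33, cores of 8 letters replaced the longer patterns first planned. Alternatives were regions of −log10 q 5 or more or of fold 3 or more, lists of equal length, windows of 500 bp and 5 kb, cluster distances of 50 and 250 kb, symbols with a suffix, placement by summit, an overlap over most of the region, and leaving out regions at the ends of other genes. Region matching, pileup recovery and clustering were tested on simulated data. Python 3.11.15, numpy 2.4.6, pandas 2.3.3, scipy 1.17.1 and matplotlib 3.10.9 were used.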

Additional observations from a re-analysis of the deposited data

How the results depend on the processing

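Over 18 results and 12 settings, 130 values were recomputed: 74 counted as unchanged and 56 as moved. A reversal was defined only for a difference whose main interval left out 0. No main interval did, so no value could be counted as reversed. A share or density counted as unchanged when it stayed within its 95% interval, and a count when it stayed within 1.5 times. The cause was not tested. Values are given for the IL-4 library and then the untreated library. No paired analysis was possible because each group held 1 library, and for the same reason no replicate was left out. The clustering over all C2H2 protein genes was not run. The setting without the chromosome 4 block was chosen after seeing the data. The difference between clustered and isolated genes in marked share ran from −0.683 to 8.30 percentage points in the IL-4 library and from −4.58 to 2.16 in the untreated library, so its sign was not stable, and its interval included 0 in each setting run. A single library a group and an unknown control limit all values.

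With −log10 q of 5 or more, the regions numbered 664 and 393, the marked genes were 68.9% and 43.3%, and 39.9% and 41.0% of regions lay at ends. Overlap with the other library was then 57.4% and 95.7% at ends and 43.6% and 74.6% inside, and inside regions per 10 kb were 0.448 and 0.354 in clustered and 0.351 and 0.149 in isolated genes. With fold 3 or more, the regions numbered 336 and 200, marked genes were 53.6% and 32.2%, 2 genes were marked in the untreated library alone, and 57.7% and 57.0% of regions lay at ends. Overlap was then 57.7% and 98.2% at ends and 48.6% and 80.2% inside, and inside regions per 10 kb were 0.133 and 0.106 in clustered and 0.137 and 0.0660 in isolated genes.

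With lists of equal length the IL-4 values were 81.1% marked, 28.5% of regions at ends, an overlap of 72.6% at ends and 62.9% inside, and 0.818 (clustered) and 0.861 (isolated) inside regions per 10 kb. The untreated inside overlap was 60%, and 11 genes were marked in the untreated library alone. With a 500 bp window the IL-4 share marked was 80.6%, and 21.3% and 20.7% of regions lay at ends. With 5 kb, 95% and 82.8% were marked, 47.8% and 43.8% of regions lay at ends, and 3 genes were marked in the untreated library alone.

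Leaving out regions at ends of other genes gave 79.2% and 61.7% marked. Overlap over most of the region was 57.9% (IL-4 ends), 47.0% (IL-4 inside) and 61.5% (untreated inside). Symbols with a suffix gave 1.07 inside regions per 10 kb in isolated genes of the IL-4 library. Without the block, 29.5% and 29.6% of regions lay at ends, 46.2% of IL-4 inside regions overlapped the untreated list, and clustered genes had 0.472 and 0.321 inside regions per 10 kb.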

Other observations

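Genes of the machinery that KRAB zinc finger proteins recruit were marked at their ends in most cases. Of 23 such genes on a list, 22 had an end region in the IL-4 library and 17 in the untreated library, and 21 and 14 had one of −log10 q 5 or more. Trim28, the scaffold that the KRAB domain binds, had a fold of 4.79 in the IL-4 library and 3.15 in the untreated library. Setdb1, the H3K9 methyltransferase, had 3.08 in the IL-4 library and no end region in the untreated library. Cbx3, an HP1 protein that reads H3K9 methylation, had 9.01 and 6.84, and Hdac1, a histone deacetylase, had 9.01 and 5.10. Morc3, an ATPase of silent chromatin, had 8.30 and 6.50. Mphosph8, a subunit of the HUSH silencing complex, had 7.47 and 6.03, and Daxx, the histone H3.3 chaperone, had 7.41 and 7.24. Tasor, another HUSH subunit, had no end region in either library. Chd3 (3.77), Cbx1 (3.62), Ehmt2 (2.87) and Dnmt1 (1.96) had an end region in the IL-4 library and none in the untreated library. Chd4 had 2.80 in the IL-4 library and 2.48 in the untreated library. The list was drawn up with earlier results of these data known, and no test was made. Of all genes, 73.3% were marked in the IL-4 library and 60.1% in the untreated library. With −log10 q of 5 or more the shares of all genes were 53.8% and 34.4%.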
